A study of Mus musculus with 10 samples.

Results

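The genes described here are 3 processed pseudogenes, Gm10093, Nudc-ps1 and Gm13456, and the parent genes Hdac1 and Nudc, in melanoma tumours of mice that carry an active form of the small GTPase ARF6 and in tumours without it. They were taken from the table of gene counts by matching Ensembl identifiers to symbols, which gave all 5 of the 5 genes sought among 52636 genes in the table, of which 8904 are annotated as processed pseudogenes. The pseudogenes were picked from these same counts as copies that split by genotype, and the counts go against that description for 2 of the 3. Every Arf6Q67L tumour stood above every control for Gm13456. For Gm10093 and Nudc-ps1, control tumour 1 carried as many counts as the Arf6Q67L tumours, and the other 3 controls carried almost none.

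A processed pseudogene is a copy of a messenger RNA that was reverse-transcribed and inserted back into the genome, so that it lacks the introns of its parent and usually lies on another chromosome without the parent's promoter. Reads from a recent copy and from its parent can be nearly identical, and a read that spans no difference between them can be placed at either. HDAC1 is a histone deacetylase that works as the catalytic subunit of the SIN3, NuRD and CoREST repressor complexes. NUDC is a co-chaperone of HSP90 that acts with LIS1 and the dynein motor in nuclear positioning and mitosis. EEF1A1, whose messenger RNA gave rise to Gm13456, brings aminoacyl-tRNA to the ribosome and is among the most abundant proteins of the cell.

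The 6 Arf6Q67L tumours had the genotype BrafCA;Cdkn2af/f; Arf6Q67L and the 4 controls had BrafCA;Cdkn2af/f, so that both groups carried BrafCA, a conditional form of the oncogene, together with a floxed Cdkn2a tumour suppressor. Arf6Q67L is a form of ARF6 locked in its active state. The promoter that drives Cre, the age and sex of the mice, the strain background and whether each tumour came from its own mouse are not given in the labels, so p-values measure only the spread between these tumours. Each sample title holds a different number, but what that number stands for is not stated. Polyadenylated RNA was read in 1 library per tumour, with 31372896 to 37918116 counts in Arf6Q67L tumours and 28635414 to 40869091 in controls. Libraries were numbered 1 to 6 in Arf6Q67L tumours and 9 to 12 in controls, and the order of libraries therefore cannot be told apart from genotype. Among melanocyte markers, Tyr and Dct were at 0 counts in all 10 tumours and the 7 markers summed to 12.9 to 26.7 CPM, the count scaled to library size, in Arf6Q67L tumours and 14.0 to 21.3 CPM in controls. Most of that sum was Mitf, with a mean of 17.0 CPM in Arf6Q67L tumours and 16.6 CPM in controls. Sox10 and Pmel averaged 0.582 and 0.712 CPM in Arf6Q67L tumours and 0.410 and 0.795 CPM in controls, and Tyrp1 and Mlana were lower still. Summed markers of other cell types lay at 2.42 to 44.2 CPM in Arf6Q67L tumours and 15.0 to 213 CPM in controls for 4 T cell markers, and at 27.0 to 494 CPM in Arf6Q67L tumours and 5.95 to 43.6 CPM in controls for 3 mast cell markers. For 4 macrophage markers they lay at 331 to 684 CPM in Arf6Q67L tumours and 474 to 1484 CPM in controls, and for 4 endothelial markers at 55.4 to 238 CPM in Arf6Q67L tumours and 98.2 to 257 CPM in controls. For 4 skeletal muscle markers they lay at 8.49 to 397 CPM in Arf6Q67L tumours and 1.16 to 558 CPM in controls, and for 3 keratinocyte markers at 3.69 to 5.97 CPM in Arf6Q67L tumours and 4.02 to 5.56 CPM in controls. Of the keratinocyte markers, Krt10 averaged 4.33 CPM in Arf6Q67L tumours and 4.79 CPM in controls, and Krt5 and Krt14 at most 0.195 CPM in either group. The groups overlap for every one of these sums. DESeq2 called all 3 mast cell markers (median log2 fold change 3.26) and 2 of the 4 endothelial markers, beside 2.33% of all genes. All 3 mast cell and all 4 T cell markers had an unadjusted edgeR p under 0.05, with a median log2 fold change of -2.43 for T cells. So did 3 of the 4 macrophage markers (median -0.93) and 3 of the 4 endothelial markers (median -0.88), beside 11.7% of all genes tested. Of the melanocyte, skeletal muscle and keratinocyte markers tested, 0 did. Only 2 of the 7 melanocyte and 1 of the 3 keratinocyte markers were tested, since the others did not pass the filter on low counts. The adjusted threshold of edgeR was passed by 0 markers. The part of these cell types in the values below was not tested, and in bulk tumours fewer cells of a type and less RNA per cell cannot be told apart. Of the engineered genes, Arf6 stood at 104 ± 21.2 CPM in Arf6Q67L tumours and 92.9 ± 17.3 CPM in controls, Braf at 46.6 ± 3.17 CPM in Arf6Q67L tumours and 41.4 ± 2.39 CPM in controls, and Cdkn2a at 11.9 ± 2.51 CPM in Arf6Q67L tumours and 13.7 ± 5.31 CPM in controls (SD, n = 6 and 4).

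The sequences show how little separates each copy from its parent. Gm10093 (ENSMUSG00000061062) lies on chromosome 17 (chr17:78491582-78493025, plus strand, GRCm38), overlaps no other annotated gene and is 1444 bases long. Hdac1 (ENSMUSG00000028800) lies on chromosome 4 (chr4:129516104-129542713, minus strand). The copy aligned with the coding part of the transcript Hdac1-201 at 99.4% identity, with 9 substitutions and no gap, over 99.7% of the coding sequence. Of the codons that differ, 6 keep the amino acid and 3 change it, and there is no new stop codon. Below is the 300-base stretch of Gm10093 that holds most of the differences (chr17:78491764-78492063, plus strand, bases 183 to 482), with the same stretch of Hdac1-201 (bases 267 to 566). Capitals mark the 7 bases that differ.
Gm10093: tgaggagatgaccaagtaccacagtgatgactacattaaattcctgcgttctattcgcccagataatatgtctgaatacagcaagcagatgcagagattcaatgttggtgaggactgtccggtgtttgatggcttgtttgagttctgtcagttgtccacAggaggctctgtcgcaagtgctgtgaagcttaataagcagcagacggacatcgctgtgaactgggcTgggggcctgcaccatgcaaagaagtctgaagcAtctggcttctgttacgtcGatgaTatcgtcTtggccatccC
Hdac1: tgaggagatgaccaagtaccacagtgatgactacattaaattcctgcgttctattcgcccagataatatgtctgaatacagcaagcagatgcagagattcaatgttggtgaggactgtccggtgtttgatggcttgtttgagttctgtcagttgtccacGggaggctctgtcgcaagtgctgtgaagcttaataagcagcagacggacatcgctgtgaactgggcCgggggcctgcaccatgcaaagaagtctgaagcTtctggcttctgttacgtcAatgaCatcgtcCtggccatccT
Counted from 1 at the 5′ end of Hdac1-201, with the base of Hdac1 first, these are G426A, C492T, T525A, A544G, C549T, C556T and T566C, and the others are T803C and C1254A. The longest run without a difference was 450 bases. Of all 50-base windows of Gm10093, 80.4% were identical to a stretch of Hdac1 transcripts and 15.6% occurred in no other annotated gene's transcripts. With 100-base windows these shares were 67.3% and 31.0%. How long the reads were, whether counting used the strand and where a read with several equal matches was counted are not given in the labels or headers.

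Nudc-ps1 (ENSMUSG00000110331) lies on chromosome 8 (chr8:29286431-29286981, minus strand), overlaps no annotated gene and is 551 bases long. It copies only the later part of the Nudc message, 55.2% of the coding sequence of Nudc-201. Nudc itself (ENSMUSG00000028851) lies on chromosome 4 (chr4:133532542-133545996, minus strand). The identity was 99.1%, with 1 substitution, G588A counted from the 5′ end of Nudc-201, which keeps the amino acid, and 4 bases missing from the copy. The first 296 bases of the copy (chr8:29286686-29286981, minus strand) and bases 553 to 852 of Nudc-201 hold all of these differences, with capitals at the substitution in both and at the 4 missing bases in Nudc.
Nudc-ps1: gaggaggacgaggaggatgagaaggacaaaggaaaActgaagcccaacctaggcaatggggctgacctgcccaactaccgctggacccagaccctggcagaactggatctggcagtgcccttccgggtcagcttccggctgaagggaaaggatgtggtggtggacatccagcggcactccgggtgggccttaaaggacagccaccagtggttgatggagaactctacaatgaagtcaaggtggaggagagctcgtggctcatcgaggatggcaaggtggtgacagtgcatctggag
Nudc: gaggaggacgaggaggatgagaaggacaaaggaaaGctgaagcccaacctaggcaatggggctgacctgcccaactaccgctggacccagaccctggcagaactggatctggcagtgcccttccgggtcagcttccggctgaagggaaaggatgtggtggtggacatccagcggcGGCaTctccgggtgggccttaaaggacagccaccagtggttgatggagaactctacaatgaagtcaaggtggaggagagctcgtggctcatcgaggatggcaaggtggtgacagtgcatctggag
The longest run without a difference was 375 bases. Of the 50-base windows of Nudc-ps1, 82.9% were identical to Nudc and 17.1% occurred in no other annotated gene, against 69.9% and 30.1% with 100-base windows.

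Gm13456 (ENSMUSG00000082536) lies on chromosome 2 (chr2:40555752-40557116, plus strand), overlaps no annotated gene and is 1365 bases long. Its best match among coding transcripts was Eef1a1-201, at 98.6% identity over 1317 aligned columns with 18 substitutions and 1 inserted base. Eef1a1 (ENSMUSG00000037742) lies on chromosome 9 (chr9:78478449-78489151, minus strand), overlaps the annotated gene Gm26377 and was added to the genes as this parent. Of the codons that differ, 10 keep the amino acid and 8 change it, and 1 new stop codon arises. The 300-base stretch below (chr2:40556525-40556824, plus strand, bases 774 to 1073) is set beside bases 919 to 1218 of Eef1a1-201, with the 9 differing bases in capitals.
Gm13456: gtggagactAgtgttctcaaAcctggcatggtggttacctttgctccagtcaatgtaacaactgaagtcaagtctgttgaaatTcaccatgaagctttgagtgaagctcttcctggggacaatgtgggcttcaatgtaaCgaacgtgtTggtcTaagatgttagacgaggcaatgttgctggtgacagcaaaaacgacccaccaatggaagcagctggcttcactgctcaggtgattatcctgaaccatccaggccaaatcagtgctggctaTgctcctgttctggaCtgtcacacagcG
Eef1a1: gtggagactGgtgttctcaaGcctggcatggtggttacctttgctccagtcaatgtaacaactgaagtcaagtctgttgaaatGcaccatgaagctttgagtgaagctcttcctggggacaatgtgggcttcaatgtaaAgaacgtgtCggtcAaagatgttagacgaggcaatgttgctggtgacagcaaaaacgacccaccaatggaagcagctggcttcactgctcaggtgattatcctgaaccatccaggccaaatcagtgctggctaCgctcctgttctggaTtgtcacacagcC
Gm13456 is easier to tell from its parent than the others, since 42.6% of its 50-base windows and 75.7% of its 100-base windows occurred in no other annotated gene. Identical to Eef1a1 were 49.2% and 23.1% of them.

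Gm10093, the Hdac1 copy, was plentiful in all 6 Arf6Q67L tumours and in 1 control and sparse in the other 3 controls. It had 637, 736, 295, 744, 475 and 477 counts in Arf6Q67L tumours 1 to 6, against 840, 9, 8 and 12 counts in controls 1 to 4. Control 1 had the highest count of all 10 tumours, the other controls were far below every Arf6Q67L tumour, and the groups overlap. The mean was 16.0 ± 5.20 CPM in Arf6Q67L tumours (SD, n = 6) and 5.56 ± 10.5 CPM in controls (SD, n = 4), scaled with TMM factors. Control 1 stood at 21.3 CPM, 75.3 times the median of the other 3 controls, and Arf6Q67L tumour 3 was lowest of its group at 9.41 CPM. In CPM, Arf6Q67L tumour 4 was above control 1, at 23.3 CPM. The log2 fold change of Arf6Q67L over control was 1.52 (SE 1.16), and 5.62 without control 1. Both are given as descriptions with no p-value, here and for the other members, because the members were picked from this contrast.

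Nudc-ps1 showed the same arrangement of tumours at a lower level. It had 171, 215, 44, 175, 168 and 220 counts in Arf6Q67L tumours 1 to 6, against 254, 4, 5 and 3 counts in controls 1 to 4. Control 1 again had the highest count of all tumours and Arf6Q67L tumour 3 the lowest of its group, so the groups overlap. The exact 95% Poisson limits of the counts of 4, 5 and 3 were 1.09 to 10.2, 1.62 to 11.7 and 0.619 to 8.77, and they cover counting error only. The mean was 4.68 ± 1.77 CPM in Arf6Q67L tumours and 1.71 ± 3.15 CPM in controls (SD, n = 6 and 4), with control 1 at 51.2 times the median of the other controls. The log2 fold change was 1.44 (SE 1.10), and 5.09 without control 1. Gm10093 and Nudc-ps1 passed the filter on low counts through the Arf6Q67L tumours and control 1, where they are high.

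Gm13456, the Eef1a1 copy, separated the genotypes. It had 348, 308, 357, 322, 336 and 327 counts in Arf6Q67L tumours 1 to 6, against 186, 120, 104 and 127 counts in controls 1 to 4. Every Arf6Q67L tumour was above every control, and control 1 lay with the other controls at 1.25 times their median. The mean was 9.57 ± 1.05 CPM in Arf6Q67L tumours and 4.10 ± 0.483 CPM in controls (SD, n = 6 and 4). The log2 fold change was 1.22 (SE 0.15). Leaving out each tumour in turn gave 1.17 to 1.30.

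The parent genes varied little. Hdac1 had 3780, 3942, 3343, 3561, 4144 and 4542 counts in Arf6Q67L tumours 1 to 6, against 4248, 4435, 3835 and 3875 counts in controls 1 to 4. At 111 ± 9.65 CPM in Arf6Q67L tumours and 128 ± 14.1 CPM in controls (SD, n = 6 and 4), the groups overlap, with a log2 fold change of -0.20 (SE 0.10). Control 1, at 108 CPM, lay among the Arf6Q67L tumours, which spanned 102 to 129.8 CPM, and the other controls spanned 129.9 to 139 CPM. Nudc had 4136, 4073, 3188, 3904, 4932 and 4140 counts in Arf6Q67L tumours, against 4700, 3832, 3776 and 3479 in controls. Its mean was 116 ± 9.28 CPM in Arf6Q67L tumours and 122 ± 7.30 CPM in controls (SD, n = 6 and 4), the groups overlap and the log2 fold change was -0.08 (SE 0.08). Eef1a1 had 338692, 302084, 336236, 277404, 328133 and 300964 counts in Arf6Q67L tumours, against 412375, 278592, 240830 and 251374 in controls. Its mean was 9004 ± 887 CPM in Arf6Q67L tumours and 9025 ± 958 CPM in controls (SD, n = 6 and 4), and the log2 fold change was -0.0034 (SE 0.11). All 3 parents had overlapping groups.

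**Figure D1:**
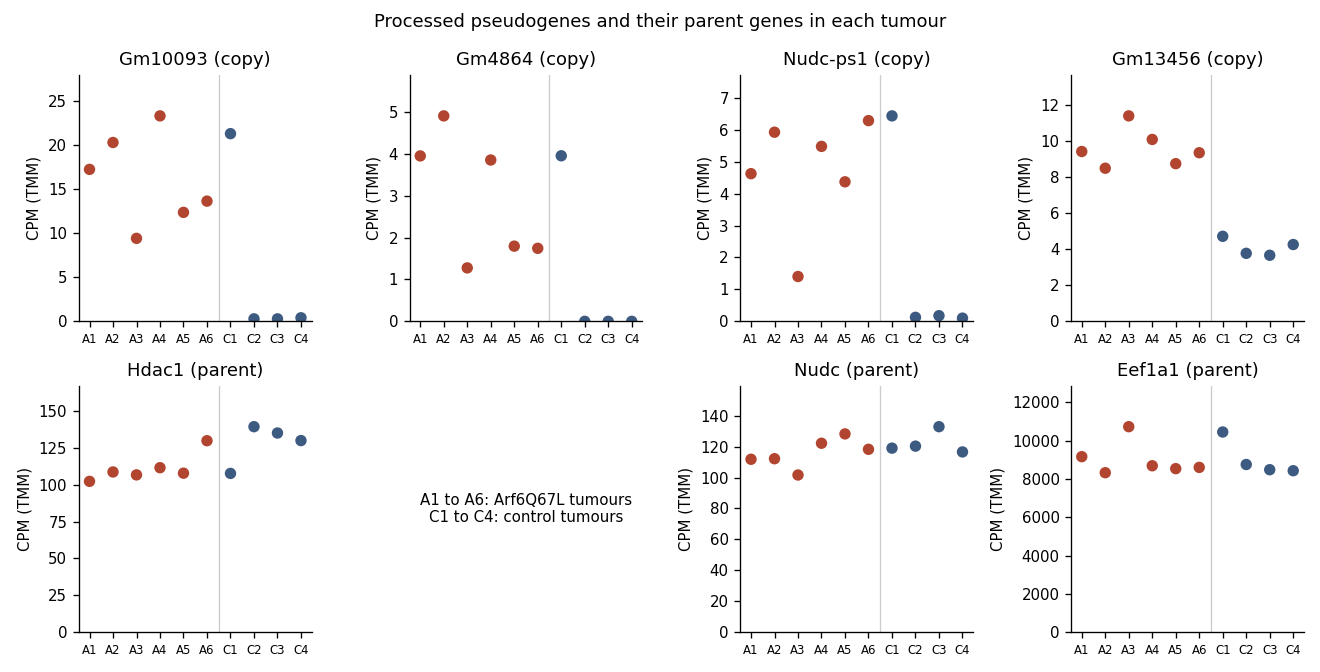
Each point is 1 tumour and the vertical axis is CPM after TMM scaling, with the copies above their parents (A1 to A6 are Arf6Q67L tumours, C1 to C4 controls). For Gm10093, Gm4864 and Nudc-ps1, control 1 stands with the Arf6Q67L tumours (21.3, 3.95 and 6.43 CPM) and the other controls lie near or at 0, whereas for Gm13456 all 4 controls lie under all 6 Arf6Q67L tumours.

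The share of counts at the copy puts copy and parent on one scale within each library, without any scaling between libraries. Gm10093 took 14.4%, 15.7%, 8.11%, 17.3%, 10.3% and 9.50% of the counts of Gm10093 and Hdac1 in Arf6Q67L tumours 1 to 6, against 16.5%, 0.203%, 0.208% and 0.309% in controls 1 to 4. The exact (Clopper-Pearson) 95% interval was 15.5% to 17.6% in control 1 and 7.24% to 9.04% in Arf6Q67L tumour 3, and its upper bound was at most 0.539% in the other controls. Control 1 lay inside the range of the Arf6Q67L tumours. Nudc-ps1 took 3.97%, 5.01%, 1.36%, 4.29%, 3.29% and 5.05% of the counts of Nudc-ps1 and Nudc in Arf6Q67L tumours, against 5.13%, 0.104%, 0.132% and 0.0862% in controls. Its interval of 0.991% to 1.82% in Arf6Q67L tumour 3 lay under those of all the other Arf6Q67L tumours and above the highest upper bound among controls 2 to 4, which was 0.308%. Gm13456 took 0.103%, 0.102%, 0.106%, 0.116%, 0.102% and 0.109% of the counts of Gm13456 and Eef1a1 in Arf6Q67L tumours, against 0.0451%, 0.0431%, 0.0432% and 0.0505% in controls. That share was near constant within each genotype, at 0.106 ± 0.00543% in Arf6Q67L tumours and 0.0455 ± 0.00349% in controls (SD, n = 6 and 4). For Gm10093 the means were 12.6 ± 3.75% in Arf6Q67L tumours and 4.31 ± 8.13% in controls, and for Nudc-ps1 they were 3.83 ± 1.38% in Arf6Q67L tumours and 1.36 ± 2.51% in controls.

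**Figure D2:**
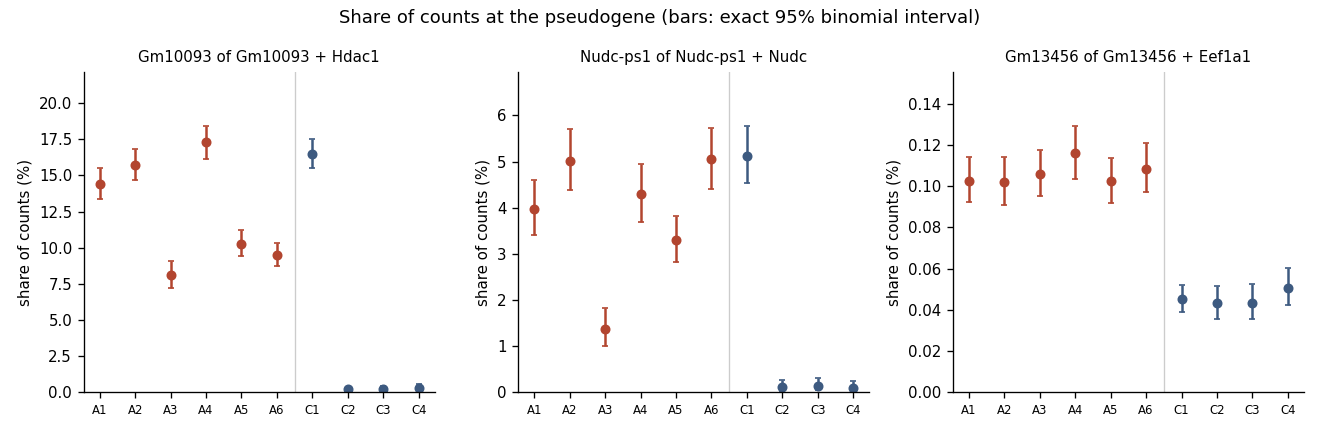
The vertical axis is the percentage of the counts of copy plus parent that were assigned to the copy, with exact 95% binomial intervals for each tumour (A1 to A6 Arf6Q67L, C1 to C4 controls). Shares of Gm10093 lie between 8.11% and 17.3% in Arf6Q67L tumours and at 16.5% in control 1, and those of Gm13456 between 0.102% and 0.116% in Arf6Q67L tumours and at 0.0431% to 0.0505% in controls.

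Hdac1 has a further copy, Gm4864 (ENSMUSG00000112003, chr12:77623549-77625009, minus strand), that was chosen for description after its values were seen. It had 146, 178, 40, 123, 69 and 61 counts in Arf6Q67L tumours 1 to 6, against 156, 0, 0 and 0 counts in controls 1 to 4. The exact 95% Poisson upper limit of a count of 0 is 3.69 counts. A level of 3 counts is 0.0942, 0.106 and 0.101 CPM in controls 2, 3 and 4, beside 3.95 CPM in control 1. The tumours thus fell in the same arrangement as for Gm10093, with Arf6Q67L tumour 3 lowest of its group. Gm4864 is more diverged in sequence than Gm10093. Its identity to Hdac1-201 was 94.6%, with 54 substitutions, and 83.5% of its 50-base windows occurred in no other annotated gene. At the 9 positions where Gm10093 differs from Hdac1, Gm4864 has the base of Gm10093 at 5 (C492T, T525A, A544G, C556T and C1254A) and the base of Hdac1 at the other 4. Of 9 annotated copies of Hdac1, 6 were in the table, and the remaining ones with counts were Gm8022, with 1 count in 1 tumour, and Gm18132, with 0 to 4 counts per tumour.

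Summed with its copies, Hdac1 differed less between control 1 and the other controls than on its own. Hdac1 with Gm10093 and Gm4864 came to 123, 134, 117, 139, 122 and 145 CPM in Arf6Q67L tumours 1 to 6, against 133, 139.6, 135 and 130.3 CPM in controls 1 to 4. For Hdac1 alone, control 1 had 0.797 times the median of the other controls. With only Gm10093 added, control 1 stood at 128.9 CPM, still below the other controls at 139.6, 135 and 130.3 CPM. The sums with both copies overlap between groups, with means of 130.03 ± 10.8 CPM in Arf6Q67L tumours and 134 ± 3.96 CPM in controls (SD, n = 6 and 4), a log2 ratio of means of -0.05. Hdac1 alone had an SD of 9.65 CPM in Arf6Q67L tumours and 14.1 CPM in controls, so the spread among Arf6Q67L tumours was no smaller for the sum. For Nudc the sum did not bring control 1 nearer the others. Nudc alone in control 1 was 0.989 times the median of the other controls, and with Nudc-ps1 added control 1 stood at 125 CPM, beside 120.5, 133 and 117 CPM in controls 2 to 4. In Arf6Q67L tumours that sum came to 103 to 133 CPM, and the log2 ratio of means was -0.04. Whether reads of the parents were counted at the copies was not tested, since it needs the reads.

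**Figure D3:**
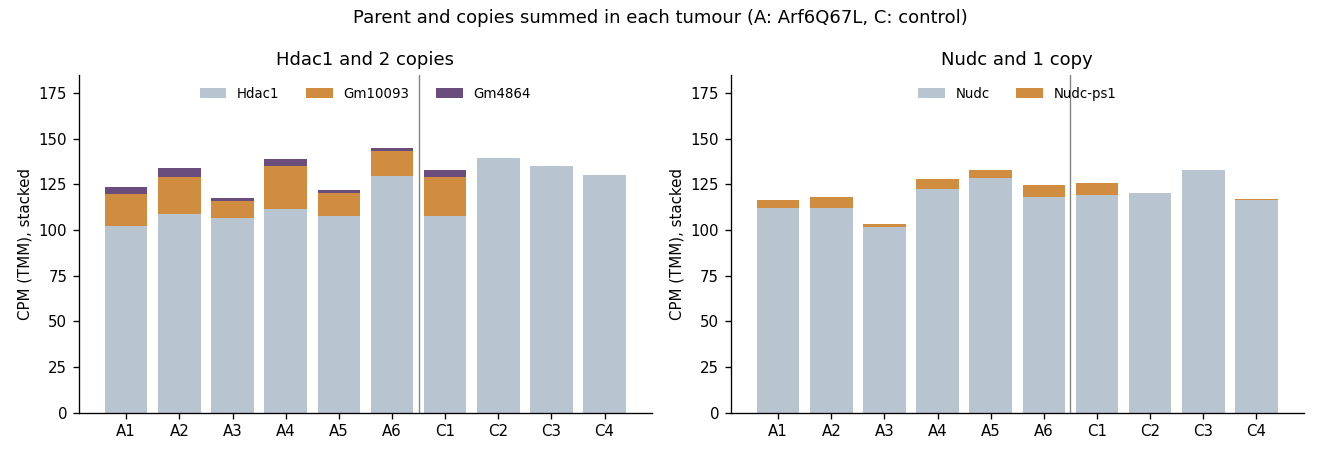
Bars stack the CPM (TMM) of each parent and its copies in each tumour (A1 to A6 Arf6Q67L, C1 to C4 controls). With Gm10093 and Gm4864 added, control 1 reaches 133 CPM, beside 130.3 to 139.6 CPM in the other controls, whereas Hdac1 alone stands at 108 CPM in control 1. With only Gm10093 added, control 1 reaches 128.9 CPM, below the other controls.

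Within the 6 Arf6Q67L tumours, copy and parent were compared in CPM, with exact two-sided permutation tests over 720 pairings and Benjamini-Hochberg adjustment over 3 relations. Gm13456 and Eef1a1 gave Pearson's r of 0.88 (exact p = 0.0236, adjusted p = 0.0708) and Spearman's rho of 0.94 (exact p = 0.0167, adjusted p = 0.05), which is at and not under the threshold of 0.05. Without the 2 tumours farthest from the median of Eef1a1, r was 0.90. Gm10093 and Hdac1 gave r of -0.05 (exact p = 0.936, adjusted p = 0.936) and rho of 0.37 (exact p = 0.497, adjusted p = 0.658), and r was 0.89 without the 2 tumours farthest from the median of Hdac1. Nudc-ps1 and Nudc gave r of 0.68 (exact p = 0.169, adjusted p = 0.254) and rho of 0.26 (exact p = 0.658, adjusted p = 0.658), and r was 0.36 without the 2 farthest. None of the 3 relations passed the threshold after adjustment, and copy and parent share the library and its scaling.

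Other Eef1a1 copies lay on both sides of 0. Of 23 annotated, 17 were in the table, 11 had counts and 5 were tested. Gm6170 had 18, 14, 13, 19, 19 and 17 counts in Arf6Q67L tumours 1 to 6, against 13, 5, 8 and 4 in controls 1 to 4, and its log2 fold change was 1.06 (SE 0.30), with the groups apart in CPM. Gm6548 had 201, 374, 197, 276, 343 and 228 counts in Arf6Q67L tumours, against 443, 333, 394 and 365 in controls, and its log2 fold change was -0.64 (SE 0.20), with every Arf6Q67L tumour below every control in CPM. Gm6170 and Gm6548 thus stood on opposite sides, though they copy the same parent. The groups overlap for Gm6767, at a log2 fold change of 0.19 (SE 0.31), and for Gm5822, at -0.10 (SE 0.31). The copies with counts that did not pass the filter were Gm5869, with 2 to 17 counts per tumour, Gm9512, with 1 to 6, and Gm15796, Gm36964, Gm4977 and Gm48338, with at most 3. Nudc has no other annotated copy.

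Read against all genes, no gene of 17286 tested passed an adjusted p of 0.05 in edgeR's quasi-likelihood test (0%), 2023 had an unadjusted p under 0.05 (11.7%), DESeq2 called 401 of 17216 (2.33%) and limma-voom called 2 (0.0116%). Counting genes whose groups do not overlap, Arf6Q67L tumours were all higher for 199 genes (1.15%) and all lower for 222 genes (1.28%). Among the 5 members this held for 1, Gm13456, and nothing is read from that count because it chose the members. Among 531 processed pseudogenes tested, 52 were higher in every Arf6Q67L tumour (9.79%) and 1, Gm6548, was lower in every one (0.188%). Their median log2 fold change was 0.18, with 338 positive and 193 negative, beside -0.0018 over all genes tested. DESeq2 called 31 of 530 processed pseudogenes higher (5.85%) and 2 lower (0.377%), Gm12250 and Gm5970. These counts changed when single tumours were left out, and fewer tumours by themselves make separate groups easier to reach. Processed pseudogenes with groups apart in either direction numbered 53 with all tumours (9.98%) and 92, 73, 68 and 71 without controls 1 to 4. Over all genes, 421 with all tumours (2.44%) became 1072, 645, 733 and 806 without controls 1 to 4. Without Arf6Q67L tumours 1 to 6 they numbered 528, 520, 690, 705, 727 and 522. The part of the smaller groups in these changes was not tested.

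Of the 52 processed pseudogenes that were higher in every Arf6Q67L tumour, 51 had a matched parent, at an identity of 95% or more over the aligned part. Over all tested, a parent was matched for 483 of the 531, with a median identity of 98.5%. At an identity of 99% or more, 27 of 186 were higher with groups apart (14.5%), at 95% to under 99% 24 of 187 (12.8%), under 95% 0 of 110, and with no matched parent 1 of 48 (2.08%). Gm13456 ranked 9 among the 52 by log2 fold change, which ran from 0.28 to 2.43 with a median of 1.003. For 50 of them the parent was tested, which made 48 distinct parents. Of these parents, 0 had groups apart in either direction, 16 had a positive log2 fold change, and the median was -0.07. The 52 copies lay on 17 chromosomes. All processed pseudogenes together took 0.239% to 0.301% of counts in Arf6Q67L tumours and 0.245% to 0.345% in controls, with control 1 highest, and the groups overlap. Gm4864, at 94.6% identity, had overlapping groups.

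**Figure D4:**
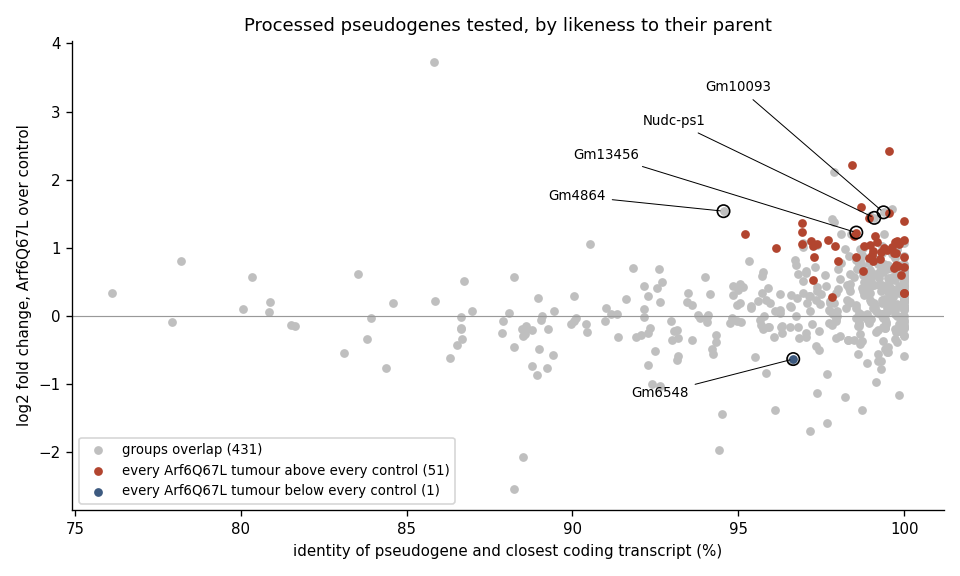
Each point is 1 of the processed pseudogenes with a matched parent, by identity to the closest coding transcript (horizontal, %) and log2 fold change of Arf6Q67L over control (vertical). Red points, where every Arf6Q67L tumour is above every control, all lie at an identity of 95% or more, and the 1 blue point, where every Arf6Q67L tumour is below, is Gm6548.

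The spread among controls was wide for Gm10093 and Nudc-ps1 and narrow for Gm13456. The highest control exceeded the lowest by 75.6 times for Gm10093, which ranked 9 among the 531 processed pseudogenes and 102 among all genes tested. By the same ratio Nudc-ps1 ranked 11 among processed pseudogenes and 122 among all genes tested. For Gm13456 the ratio was 1.29, rank 489 of 531. The median ratio was 1.95 over processed pseudogenes and 1.62 over all genes tested, and 26 processed pseudogenes and 403 genes in all reached 20. Values under the CPM of 3 counts were raised to that CPM before the ratios were taken, and the ratios and ranks depend on this floor.

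The genes around the members gave log2 fold changes that scattered about 0. Of 15 genes tested within 1 Mb of Gm10093, 8 were positive, 7 were negative, the median log2 fold change was 0.02, and 0 passed the edgeR threshold. Groups were apart for 1 of them, Gm6548 above, beside 2.44% of all genes tested. Its neighbours on either side were Fez2, of the family of fasciculation and elongation proteins, at a distance of -73.4 kb (toward lower coordinates) with a log2 fold change of 0.13 (SE 0.13), and Strn, a scaffold of the STRIPAK phosphatase complex, at 157 kb with 0.02 (SE 0.12). In control 1 these neighbours stood at 42.3 and 57.4 CPM, beside 45.0 to 52.1 and 43.3 to 56.3 CPM in the other controls, so control 1 did not stand out there as it did for Gm10093. No gene was tested within 1 Mb of Nudc-ps1. Gm13456 had 1 tested neighbour, Gm13453, at a distance of -428 kb, with a log2 fold change of -0.10 (SE 0.20). Around Hdac1, 20 of 46 genes were positive and 26 negative, with a median of -0.03. Groups were apart for Sync, an intermediate filament protein of muscle, at 1.12 (SE 0.28), Fam167b at -1.31 (SE 0.22) and Pef1, a calcium-binding protein, at -0.34 (SE 0.09), at edgeR adjusted p of 0.239, 0.199 and 0.248. That made 1 higher and 2 lower of the 46, beside 1.15% and 1.28% of all genes tested. Around Nudc, 21 of 48 genes were positive and 27 negative, with a median of -0.13 and no gene with groups apart. Control 1 did lie away from the other controls for some genes near Nudc, chosen after their values were seen. Hmgn2, a nucleosome-binding protein gene, spanned 17.6 to 79.4 CPM in Arf6Q67L tumours, against 26.1 CPM in control 1 and 118 to 166 CPM in the other controls. Cep85, a centrosomal protein gene, spanned 18.5 to 102 CPM in Arf6Q67L tumours, against 32.7 CPM in control 1 and 143 to 178 CPM in the other controls. In both, control 1 stood within the range of the Arf6Q67L tumours. Control 1 was at least 1.5 times above the highest or below the lowest of the other controls for 12 of 48 genes around Nudc (25%), 5 of 46 around Hdac1 (10.9%), 1 of 15 around Gm10093 and 0 of 1 around Gm13456, beside 1730 of 17286 genes tested (10.01%).

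**Figure D5:**
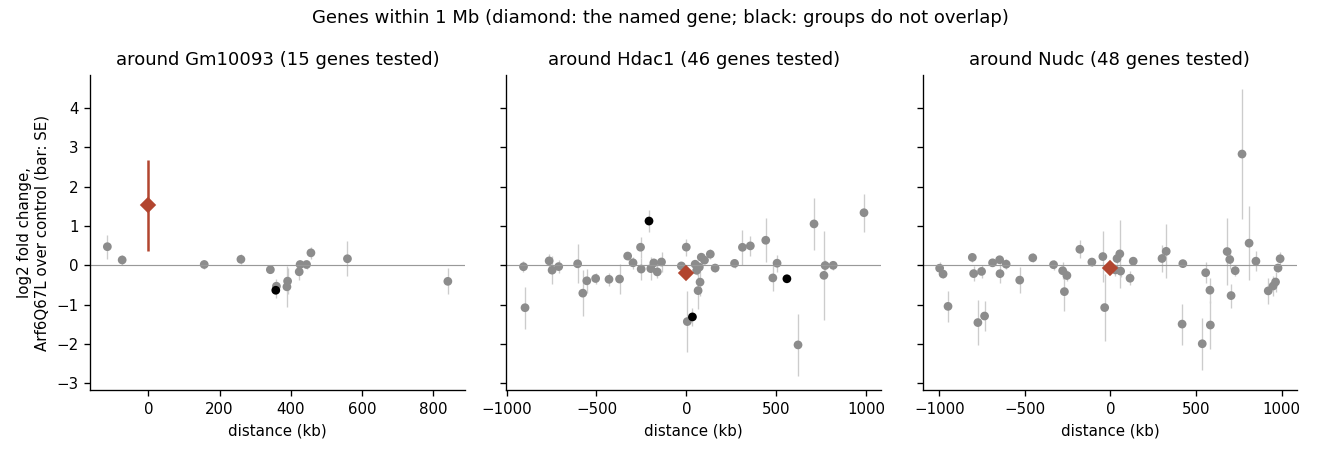
The horizontal axis is the distance in kb from the named gene, the vertical axis is the log2 fold change of Arf6Q67L over control with its standard error, and points are genes tested within 1 Mb. Around Gm10093 (diamond at 1.52) the neighbours scatter about a median of 0.02, and black points mark genes whose groups do not overlap, 1 around Gm10093 and 3 around Hdac1.

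The genes most like each pseudogene across the 10 tumours were found by Pearson's r of log2 CPM, given as a description, since tumours of both genotypes enter it. Members were left out of the genes named here, so the likeness of Gm10093 and Nudc-ps1 to each other is not ranked. Gm10093 was most like Gm4864 (r = 0.99), Med18, a subunit of the Mediator complex (r = 0.94), and Ubqln2, a ubiquitin-binding shuttle to the proteasome (r = 0.94). Med18, on chromosome 4 (chr4:132458731-132463921) like Hdac1 and Nudc, had 287, 260, 268, 277, 248 and 266 counts in Arf6Q67L tumours 1 to 6, against 300, 144, 111 and 110 in controls 1 to 4. Control 1 again stood with the Arf6Q67L tumours. Nudc-ps1 was most like Gm4864 (r = 0.98), the long noncoding RNA gene Gm4262 (r = 0.93) and Gm10282 (r = 0.93). Gm13456 was most like Vcp-rs, a copy of the AAA ATPase gene Vcp (r = 0.96), Gm14681, a copy of the nucleolar chaperone gene Npm1 (r = 0.94), and Tes, the gene of the focal adhesion protein testin (r = 0.93). Vcp-rs had 133, 119, 103, 97, 102 and 124 counts in Arf6Q67L tumours 1 to 6, against 80, 47, 44 and 49 in controls 1 to 4, so that its groups do not overlap. At an r of 0.9 or more there were 13 genes for each pseudogene among the 17285 other genes tested, members included. Of these 13, 2 for Gm10093, 3 for Nudc-ps1 and 10 for Gm13456 were processed pseudogenes, a class that makes up 3.07% of genes tested. On chromosome 4 were 2, 1 and 0 of the 13, beside 5.76% of genes tested.

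The partners of the parent proteins showed no call. Of 20 genes of NUDC and dynein partners, all tested, 15 were positive and 5 negative, and their median log2 fold change was 0.10 beside -0.0018 over all genes. None passed edgeR's adjusted threshold, 1 had an unadjusted p under 0.05 and DESeq2 called 0. Lowest in p was Dctn1, the large dynactin subunit, at 117 ± 13.0 CPM in Arf6Q67L tumours and 94.9 ± 6.86 CPM in controls (SD, n = 6 and 4), a log2 fold change of 0.30 (SE 0.10, edgeR adjusted p = 0.338). Nde1 and Pafah1b1 (LIS1), regulators of dynein, and Dync1i2, a dynein intermediate chain, followed at 0.20, 0.17 and 0.16. The list of 28 HDAC1 complex partners also holds the genes of the related deacetylases Hdac3 and Hdac8. Of the 28, 27 were tested, 19 positive and 8 negative with a median of 0.06. None passed edgeR's adjusted threshold, 3 had an unadjusted p under 0.05, beside 11.7% of all genes tested, and DESeq2 called 0. Sap30, a SIN3 complex subunit, stood at 9.85 ± 1.37 CPM in Arf6Q67L tumours and 13.6 ± 2.58 CPM in controls (SD, n = 6 and 4), a log2 fold change of -0.47 (SE 0.16, edgeR adjusted p = 0.345). Gatad2a and Chd4, subunits of NuRD, stood at 0.22 (SE 0.08) and 0.25 (SE 0.10), and Rcor1, the CoREST scaffold, at 0.31 (SE 0.15). The groups did not overlap for 1 gene of that list in each direction, Chd4 higher and Sap18, a SIN3 complex subunit, lower in Arf6Q67L tumours, beside 1.15% and 1.28% of all genes tested.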

How the data were processed

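Polyadenylated RNA of 10 mouse melanoma tumours was sequenced after extraction and stranded library preparation with Qiagen and Illumina TruSeq kits, per the labels' protocols. The authors deposited raw read counts per gene. Per the submitters' processing notes, which give no roles, the tools were STAR 2.5.2b, featureCounts 1.5.1 and DESeq2 1.18.0, and the build GRCm38. Groups came from the genotype label, and 52403 of 52636 identifiers matched a symbol in GENCODE M21. The members and gene lists were chosen with earlier results of these data known. From the deposited counts, edgeR 4.0.16 in R 4.3.3 was run on the 17286 genes kept by filterByExpr (minimum count 10), with TMM factors, a robust quasi-likelihood fit on genotype, Benjamini-Hochberg adjustment and a threshold of 0.05, and was tested on simulated data. CPM uses TMM factors, and log2 CPM a prior count of 2. DESeq2 1.42.0, limma-voom 3.58.1, other scalings, no filter and leaving out each tumour were alternatives. Processed pseudogenes were matched to coding transcripts with megablast (BLAST 2.17.0, E-value under 1e-10), and sequences come from GENCODE M21 transcripts. No library repeated another of its group (the lowest chi-square per gene was 77.9). Libraries of different groups were not compared in this way, and the labels pair no tumours. Genes named beyond the members were the parent of Gm13456, every other copy of the parents with counts, the 3 genes of highest r with each pseudogene, up to 4 genes of lowest p in each list, the nearest tested neighbours, Arf6, Braf, Cdkn2a and the markers. The sums with Gm4864, the ratio of 1.5 for control 1 beside the other controls, and Hmgn2, Cep85, Sync, Fam167b, Pef1, Sap18, Gm12250 and Gm5970, were chosen after values were seen.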

Additional observations from a re-analysis of the deposited data

Results flagged for a closer look

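Each gene's CPM was checked in both groups for a highest or lowest tumour far from the rest (Dixon's test at 95%), in 14 groups, and chance gives such a value in about 1 of 20 groups. For Gm10093, Nudc-ps1 and Gm13456, chosen from these counts, and Gm4864, chosen after its values were seen, the check describes the values and tests nothing. Control 1 stood apart from the other 3 controls for Gm10093 at 21.3 CPM, for Nudc-ps1 at 6.43 CPM, for Gm4864 at 3.95 CPM, where the other controls are all at 0, and for Eef1a1 at 10446 CPM. Arf6Q67L tumour 6 stood apart from its group for Hdac1 at 129.8 CPM, and Arf6Q67L tumour 3 for Eef1a1 at 10724 CPM. Their causes were not tested.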

How the results depend on the processing

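Of 217 alternative values for 17 results, 201 kept within 1 SD or 1.5 times of the value reported and 16 moved further. The log2 ratio of Gm13456 and Eef1a1 summed, near 0, changed sign in some (-0.06 to 0.08 when each tumour was left out). The log2 fold change of Gm10093 was 4.52 with limma-voom and quality weights, and 1.12 to 5.62 when each tumour was left out, the highest without control 1. That of Nudc-ps1 was 3.88 with limma-voom and 1.06 to 5.09, again highest without control 1. Genes past the adjusted threshold numbered 401 with DESeq2, 2 with limma-voom, and 0 to 1 when each tumour was left out. The call without control 1 was Gm10093, and Gm13456 was 1 of the 2 limma-voom calls; nothing is read from either, because that contrast chose the members. Genes with groups apart numbered 520 to 1072 when each tumour was left out, and processed pseudogenes with groups apart 53 to 92, or 93 without the low-count filter. Leaving out tumours makes separate groups easier to reach. No paired analysis was possible because replicate numbers follow accession order and pair no tumours. DESeq2 gave no p-value for Nudc-ps1. Depth limits Nudc-ps1 and Gm10093 in controls 2 to 4, at 3 to 12 counts. Read placement could not be examined from counts.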

Other observations

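Some other processed pseudogenes also varied widely among controls, several of them less than Gm10093 and Nudc-ps1. They were chosen here after their values were seen. With values under the CPM of 3 counts raised to that CPM, a highest control at least 20 times the lowest was found for 26 processed pseudogenes. Gm10093, Nudc-ps1 and Gm4864 are included. Of the 26, 8, again with these included, varied under 5 times among Arf6Q67L tumours. Gm5898, a copy of the splicing factor gene Thrap3 on chromosome 4, had 214, 13, 148, 269, 126 and 152 counts in Arf6Q67L tumours 1 to 6, against 402, 12, 4 and 13 in controls 1 to 4. Gm5801, a copy of Ube2j2, which encodes a ubiquitin-conjugating enzyme of the endoplasmic reticulum, had 129, 141, 74, 60, 115 and 70 counts in Arf6Q67L tumours, against 149, 1, 51 and 57 in controls.

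Other copies set the tumours in a different order, with control 1 low. Gm8210, a copy of the ribosomal protein gene Rpl29, had 476, 429, 598, 270, 382 and 534 counts in Arf6Q67L tumours, against 2, 294, 372 and 0 in controls. A further Rpl29 copy, Gm13841, had 76, 77, 267, 78, 75 and 121 counts in Arf6Q67L tumours, against 5, 105, 128 and 5 in controls. Tma7-ps had 186, 252, 168, 92, 135 and 190 counts in Arf6Q67L tumours, against 5, 103, 103 and 2 in controls. For these 3 copies controls 1 and 4 were the low ones. Of the 26 copies above, 24 had a matched parent, which lay on chromosome 4 for 7. Among those 7 the arrangement was not shared. Gm11585, a copy of Ppih on chromosome 4, had 87, 109, 40, 0, 46 and 51 counts in Arf6Q67L tumours, against 0, 93, 80 and 108 in controls. Gm15920, a copy of the complex I gene Ndufa12, had 352, 361, 254, 338, 530 and 486 counts in Arf6Q67L tumours, against 4, 210, 349 and 324 in controls.

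Copies of the ribosomal stalk gene Rplp0 split the Arf6Q67L tumours themselves. Gm8730 had 2447, 2842, 196, 118, 164 and 164 counts in Arf6Q67L tumours, against 3783, 64, 2839 and 2551 in controls. Gm14165 had 202, 205, 11, 9, 10 and 9 counts in Arf6Q67L tumours, against 331, 0, 259 and 271 in controls. In both, Arf6Q67L tumours 1 and 2 and controls 1, 3 and 4 were high.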
